A study of Mus musculus with 12 samples.

Results

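The 10 genes described here encode the surfactant proteins, the proteins of the lamellar bodies in which surfactant is stored, and the transcription factor that governs many of them. They are *Sftpa1*, *Sftpb*, *Sftpc*, *Sftpd*, *Abca3*, *Napsa*, *Lamp3*, *Lpcat1*, *Slc34a2* and *Nkx2-1*, taken by gene symbol from a table of read counts for 52550 genes. All 10 were among the 15885 protein-coding genes that passed the filter on low counts. The counts come from bulk RNA sequencing of whole lungs of 12 C57Bl/6J mouse pups, each pup giving 1 library, in 4 groups of 3. Wild-type (WT, *Adm*+/+) pups and *Adm*+/- pups were each given lipopolysaccharide (LPS, an endotoxin of *Escherichia coli* O55:B5 that provokes inflammation) or phosphate-buffered saline (PBS). *Adm*+/- pups carry a functional copy of the adrenomedullin gene on only 1 chromosome, in every cell of the body, since a complete loss is lethal in the embryo. LPS was injected into the peritoneum, not the airway, at 6 mg/kg in 3 daily doses that began on postnatal day 3, and all lungs were taken 6 h after the last injection, on postnatal day 5. The study asked how a reduced dose of adrenomedullin alters the response of the developing lung to LPS.

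Surfactant is a film of phospholipid and protein that lowers surface tension in the alveoli and keeps them open at the end of a breath. Type II pneumocytes make it, pack it into lamellar bodies and secrete it, and they take much of it back for reuse. The small hydrophobic proteins SP-B and SP-C act in the film itself, whereas SP-A and SP-D are soluble collectins that bind microbial sugars and serve innate defence. NKX2-1 is the homeodomain factor of lung epithelium that activates many of these genes.

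On the mouse genome mm10 with Gencode M21, *Sftpa1* (chr14:41131782-41136452, plus strand) and *Sftpd* (chr14:41172214-41185149, minus strand) are close neighbours, and *Sftpc* (chr14:70520949-70524081, minus strand) lies farther along the same chromosome. *Sftpb* is at chr6:72304610-72314371 (plus strand), *Slc34a2* at chr5:53038081-53071664 (plus strand), *Lpcat1* at chr13:73467197-73516422 (plus strand) and *Lamp3* at chr16:19653378-19706375 (minus strand). *Nkx2-1* is at chr12:56531958-56536908 (minus strand), *Napsa* at chr7:44572380-44586862 (plus strand) and *Abca3* at chr17:24351950-24410201 (plus strand). *Abca3* shares 914 bases of exon with the antisense gene *D330041H03Rik*, and *Napsa* shares 502 with the antisense gene *Gm15396*. Whether the counting used strand is not given in the sources used here, so reads of these 2 pairs could be mixed. The other members share no exon bases with another gene.

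Promoter sequences were found in RefSeq (build GRCm38.p6) for 7 of the 10 members, and those of *Sftpc*, *Sftpd* and *Napsa* were not in the table used. The bases just upstream of the start are shown for the 3 called members that had a sequence (*Sftpa1*, *Slc34a2*, *Lpcat1*), for *Sftpb*, whose LPS response did not pass the test, and for *Lamp3*. Each runs 5′ to 3′ on the strand of its gene and ends at the base before the next Gencode M21 exon of that gene, which is its first exon except in *Slc34a2*, whose RefSeq start lies within the longer Gencode gene. This shortened the 250 bases upstream of the RefSeq start by 6 for *Sftpa1*, 1 for *Slc34a2*, 34 for *Lpcat1* and 10 for *Lamp3*, and by 73 for *Abca3*, which is not shown. The windows are chr14:41131538-41131781 (plus) for *Sftpa1*, chr6:72304360-72304609 (plus) for *Sftpb*, chr5:53049103-53049351 (plus) for *Slc34a2*, chr13:73466981-73467196 (plus) for *Lpcat1* and chr16:19706376-19706615 (minus) for *Lamp3*. Capitals mark matches, on either strand, to the NKX2-1 core TCAAG, to the FOXA pattern TGTTTAC and to the STAT pattern TTCNNNGAA, where N is any base.
Sftpa1: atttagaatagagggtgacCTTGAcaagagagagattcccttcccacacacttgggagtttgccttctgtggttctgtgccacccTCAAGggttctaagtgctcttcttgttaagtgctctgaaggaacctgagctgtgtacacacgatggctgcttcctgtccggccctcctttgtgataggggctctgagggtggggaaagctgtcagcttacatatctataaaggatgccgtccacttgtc
Sftpb: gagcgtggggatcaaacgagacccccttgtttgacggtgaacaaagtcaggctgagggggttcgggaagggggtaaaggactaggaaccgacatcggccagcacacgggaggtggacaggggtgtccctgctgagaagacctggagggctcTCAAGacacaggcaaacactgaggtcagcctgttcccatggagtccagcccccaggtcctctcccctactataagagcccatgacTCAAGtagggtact
Slc34a2: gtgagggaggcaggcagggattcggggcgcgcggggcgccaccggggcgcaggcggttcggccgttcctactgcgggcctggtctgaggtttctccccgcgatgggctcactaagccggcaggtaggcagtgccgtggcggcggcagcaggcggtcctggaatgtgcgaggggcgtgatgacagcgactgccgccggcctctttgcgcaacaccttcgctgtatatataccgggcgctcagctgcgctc
Lpcat1: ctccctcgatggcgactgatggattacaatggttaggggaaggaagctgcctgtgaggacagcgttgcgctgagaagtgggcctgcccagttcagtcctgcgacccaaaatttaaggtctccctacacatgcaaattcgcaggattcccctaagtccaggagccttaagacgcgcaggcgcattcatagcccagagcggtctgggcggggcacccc
Lamp3: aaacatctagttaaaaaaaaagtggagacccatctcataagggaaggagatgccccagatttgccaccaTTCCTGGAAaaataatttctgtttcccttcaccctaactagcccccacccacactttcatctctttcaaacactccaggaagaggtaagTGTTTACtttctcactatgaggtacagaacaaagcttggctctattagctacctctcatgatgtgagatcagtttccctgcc
The 2 matches to the NKX2-1 core in *Sftpb* begin 99 and 14 bases before that exon. Those in *Sftpa1* begin 225 bases (as CTTGA, on the other strand) and 159 bases before it. *Nkx2-1* itself held 2 matches, 246 and 234 bases before its first exon, and none was found in *Slc34a2*, *Lpcat1*, *Lamp3* or *Abca3*. The core is short, and 36.01% of 27025 promoters held it in a window of 250 bases, 32.8% in one of 216 bases as for *Lpcat1* and 28.5% in one of 177 bases as for *Abca3*. *Lamp3* held a STAT match 171 bases and a FOXA match 82 bases before its first exon, patterns present in 6.91% and 2.99% of promoters at its length of 240 bases. An NF-kappa B pattern, GGG and TTCC separated by 3 bases and present in 4.60% of promoters at 250 bases and 2.97% at 177, was found in none of the 7 members. A match is a run of letters, not a shown binding site.

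Total counts ranged from 22382535 to 38062873 per library, and the lowest count of any member in any library was 1560. The libraries carry the numbers 1 to 12 in the labels. Libraries 5 (WT PBS) and 6 (*Adm*+/- PBS) stood apart, in that protein-coding genes took 77.8% to 80.1% of their counts, compared with 84.3% to 87.6% elsewhere, and they had 13.3% to 16.6% of counts on the noncoding gene *Gm26917* against 5.42% to 7.40% in the rest. The 3 WT LPS libraries held transcripts of skeletal muscle (14 listed genes, summed level 917 to 2299 CPM against 24.1 to 63.8 CPM in the other 9 libraries, and *Acta1*, skeletal muscle actin, at up to 594 CPM). Libraries 9 and 11 of that group also held transcripts of squamous epithelium (summed 3583 and 1802 CPM over 12 genes, with *Krt13* at 1027 and 542 CPM), whereas the other 10 libraries ranged from 9.14 to 56.8 CPM. CPM denotes the count scaled to library size over the tested genes, after TMM scaling. The part of such tissue in the results was not tested. *Adm* ranged from 3.96 to 8.15 CPM in WT libraries and from 2.87 to 6.28 CPM in *Adm*+/- libraries. The log2 fold change of *Adm* between genotypes was -0.50 ± 0.32 (SE) in PBS and -0.55 ± 0.31 in LPS, and neither passed the test (edgeR, Benjamini-Hochberg adjusted p = 0.999 and 0.480).

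Per length, *Sftpc* was the most abundant of all tested genes in these lungs. Levels of different genes were compared as CPM per kb of exon, averaged over the 12 libraries. *Sftpc* reached 9014 CPM per kb and ranged from 7378 to 11224. *Sftpb* followed at 845 CPM per kb and ranked 8th among the tested genes, and *Sftpa1* at 385 and *Slc34a2* at 372 CPM per kb ranked 33rd and 39th. *Slc34a2* encodes the sodium-dependent phosphate carrier of the apical membrane of type II cells. *Sftpd* averaged 121 CPM per kb. The remaining members lay between 48.8 and 81.2 CPM per kb, in the order *Lpcat1*, *Lamp3*, *Napsa*, *Nkx2-1* and *Abca3*.

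Neighbours in this order were not all separated. *Sftpc* exceeded *Sftpb*, *Sftpb* exceeded *Sftpa1* and *Slc34a2* exceeded *Sftpd* in 12 of 12 libraries, with no overlap of their ranges. *Sftpa1* exceeded *Slc34a2* in 6 of 12 libraries, and *Sftpd* exceeded *Lpcat1* in 7 of 12. The ranges of every neighbouring pair from *Sftpd* to *Abca3* overlapped, although *Nkx2-1* exceeded *Abca3* within each of the 12 libraries. Together the 10 genes took 1.41% to 1.71% of the counts on tested genes, and *Sftpc* alone took 0.761% to 1.13%. All 10 were present in every library, as the labelled tissue requires. In whole lung, fewer type II cells and less RNA per type II cell cannot be told apart.

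**Figure D1:**
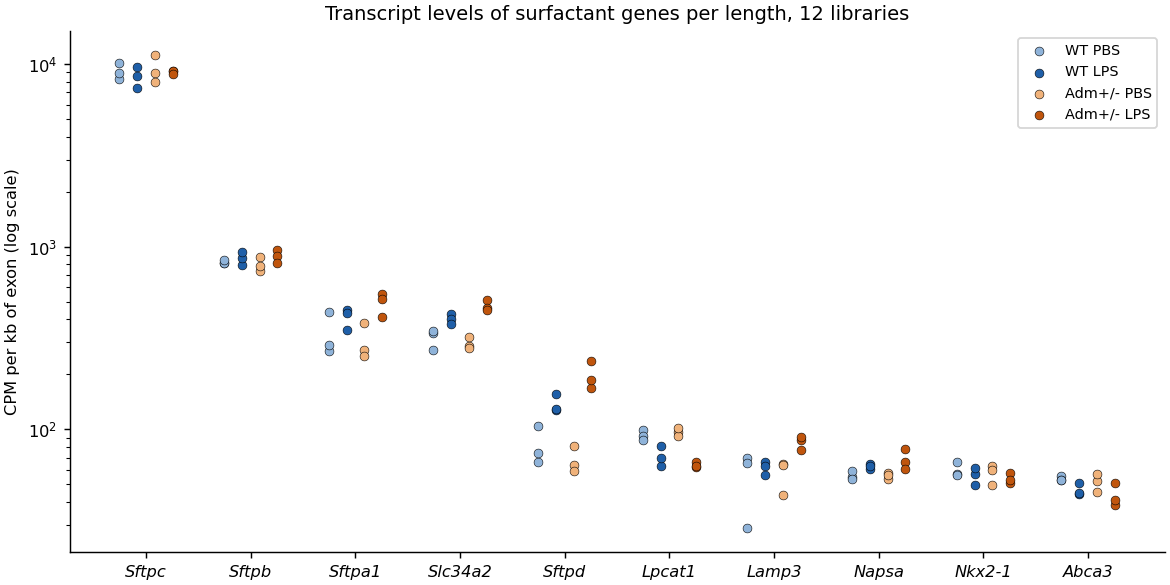
Transcript level of each member in CPM per kb of exon on a log axis, with 1 point per library and colours for the 4 groups (3 libraries each). *Sftpc* stood above every other member in all libraries, and each of the 5 least abundant members overlapped its neighbour in the order of levels.

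Members differed in how much they varied over the 12 libraries. The highest library exceeded the lowest 4.04-fold for *Sftpd*, 3.17-fold for *Lamp3*, 2.19-fold for *Sftpa1* and 1.88-fold for *Slc34a2*. *Sftpb* varied least, by 1.30-fold, and *Nkx2-1* by 1.35-fold. *Sftpc* varied 1.52-fold.

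*Sftpd*, the gene of a soluble collectin, rose with LPS in both genotypes. *Sftpa1*, the other collectin gene, and *Slc34a2* rose and *Lpcat1* fell in *Adm*+/- lungs, whereas *Sftpb*, *Sftpc*, *Abca3*, *Napsa*, *Lamp3* and *Nkx2-1* were called in neither genotype. A call required an adjusted p under 0.05 together with a log2 fold change of more than 0.5 in size (edgeR's quasi-likelihood test, Benjamini-Hochberg adjustment over all 15885 genes). By this rule 1 of 10 members was called in WT (1 higher, 0 lower), where 17.6% of all tested genes were called (10.5% higher, 7.09% lower). In *Adm*+/- lungs 4 of 10 were called (3 higher, 1 lower), beside 25% of all tested genes (12.8% higher, 12.2% lower). The median log2 fold change of the members was 0.12 in WT and 0.23 in *Adm*+/- lungs, beside 0.01 and -0.01 over all tested genes.

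*Sftpd* encodes SP-D, the collectin that also limits alveolar inflammation. It measured 161, 180.0 and 251 CPM in WT PBS lungs and 378, 306 and 310.4 CPM in WT LPS lungs. It measured 195, 155 and 142 CPM in *Adm*+/- PBS lungs and 575, 408 and 449.6 CPM in *Adm*+/- LPS lungs. All 6 LPS libraries lay above all 6 PBS libraries, and the 3 *Adm*+/- LPS libraries were the highest of the 12. The log2 fold change was 0.75 ± 0.19 (SE) in WT (1.68-fold, adjusted p = 0.0181) and 1.54 ± 0.19 in *Adm*+/- lungs (2.91-fold, 95% interval 1.12 to 1.97 on the log2 scale, adjusted p = 2.17e-04). The *Adm*+/- rise was called under all 25 alternative settings. The WT call was lost without library 3 (0.62, adjusted p = 0.0505), without library 4 (0.68, adjusted p = 0.0542) and without library 9 (0.64, adjusted p = 0.0849).

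*Sftpa1* encodes SP-A, the abundant collectin of the alveolar lining. In WT lungs it measured 769, 828 and 1258 CPM after PBS and 1291, 1000.4 and 1237 CPM after LPS, and the groups overlapped. In *Adm*+/- lungs it measured 1093, 774 and 720.2 CPM after PBS and 1575, 1179 and 1473 CPM after LPS, with no overlap. The highest PBS values of each genotype came from libraries 5 and 6, which stood apart in protein-coding share. WT lungs gave a log2 fold change of 0.31 ± 0.21 (95% interval -0.16 to 0.77, adjusted p = 0.317) and *Adm*+/- lungs 0.71 ± 0.21 (1.63-fold, adjusted p = 0.0263). Without libraries 5 and 6 the WT value was 0.56 and was called (adjusted p = 0.0229), and the *Adm*+/- value was 0.92 (adjusted p = 0.0014). The *Adm*+/- call was lost on leaving out library 1, 7, 8 or 12 alone, with values of 0.59 to 0.67.

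*Sftpc* and *Sftpb* did not pass the test in either genotype. *Sftpc* encodes SP-C, the peptide most restricted to type II cells. It measured 8580.2, 9266 and 10417 CPM in WT PBS lungs, 7628, 9917 and 8926 in WT LPS, 11605, 9196 and 8199 in *Adm*+/- PBS and 9525, 9456 and 9134 CPM in *Adm*+/- LPS. The 4 groups overlapped, and the *Adm*+/- LPS libraries lay closest together. For *Sftpc* the log2 fold change was -0.09 in WT (95% interval -0.40 to 0.21) and -0.04 in *Adm*+/- lungs (-0.35 to 0.26). Neither interval reached the fold limit of 0.5.

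*Sftpb* encodes SP-B, without which lamellar bodies do not form properly. It measured 1599, 1609 and 1674 CPM in WT PBS lungs and 1558, 1712 and 1841 CPM in WT LPS lungs. The *Adm*+/- values were 1725, 1443 and 1535 CPM after PBS and 1882, 1760.3 and 1612 CPM after LPS. LPS and PBS groups overlapped in both genotypes, with log2 fold changes of 0.07 (95% interval -0.16 to 0.29) in WT and 0.16 (-0.06 to 0.38) in *Adm*+/- lungs.

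**Figure D2:**
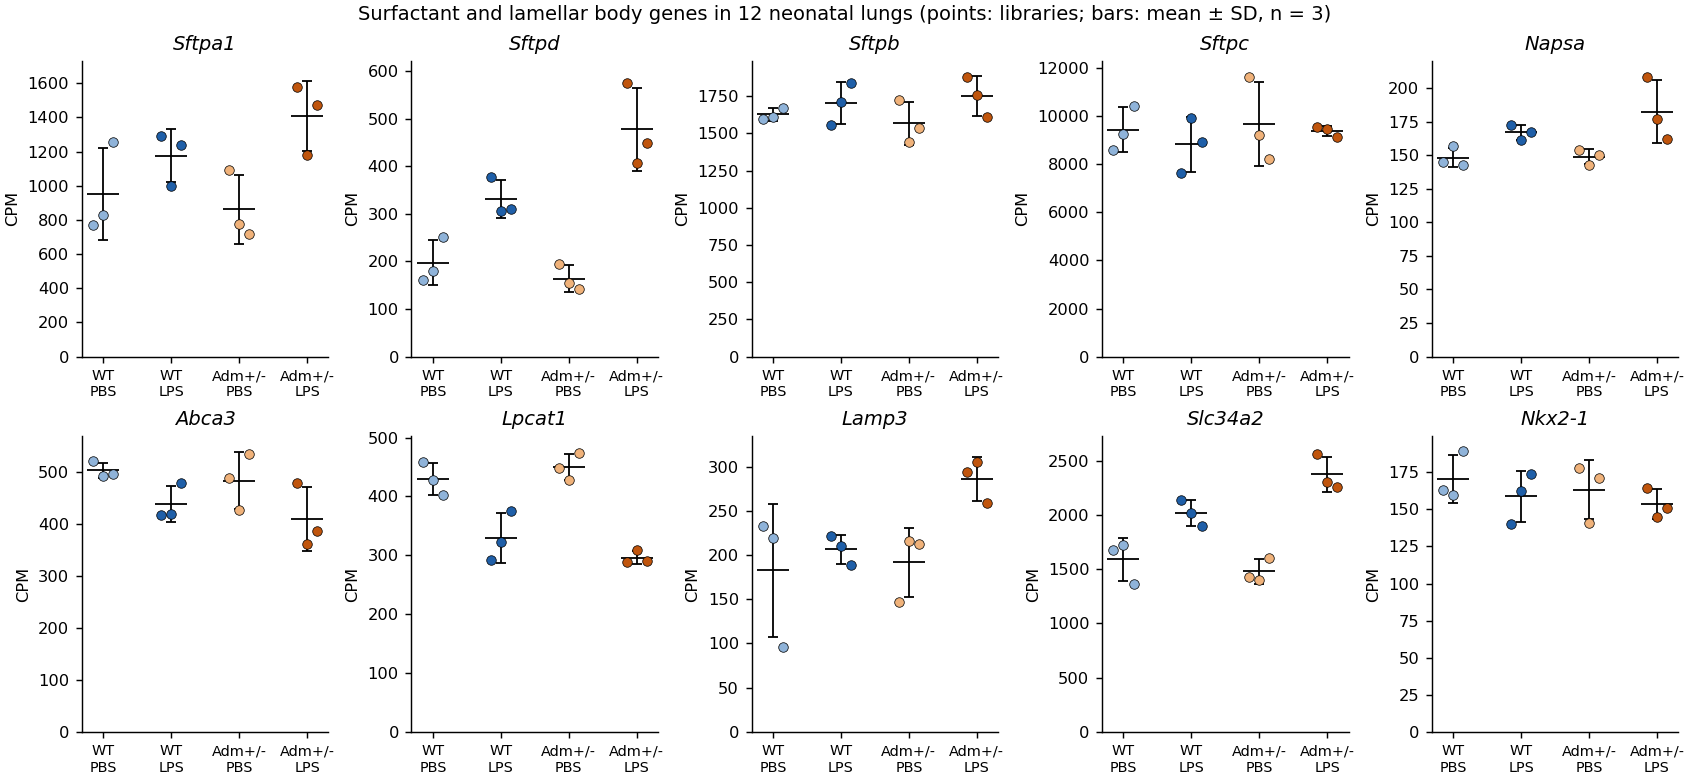
Level of each of the 10 members in TMM-scaled CPM, 1 panel per gene with the axis from 0, 1 point per library, and bars for the mean ± SD of 3 libraries. *Sftpd*, *Slc34a2*, *Napsa* and *Lpcat1* showed no overlap between LPS and PBS libraries within either genotype, whereas *Sftpb*, *Sftpc* and *Nkx2-1* overlapped in both.

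Among genes of the lamellar body and its lipid, 1 fell and the others stayed under the threshold. *Lpcat1* encodes the acyltransferase that makes dipalmitoyl phosphatidylcholine, the main surface-active lipid of surfactant. It measured 458, 428 and 403 CPM in WT PBS and 291, 322 and 376 CPM in WT LPS lungs. In *Adm*+/- lungs it measured 448, 428 and 474 CPM after PBS and 288, 309 and 291 CPM after LPS. Every LPS library lay below every PBS library. The log2 fold change was -0.38 ± 0.10 in WT (adjusted p = 0.0241, under the fold limit) and -0.61 ± 0.10 in *Adm*+/- lungs (0.657-fold, adjusted p = 0.00137). The *Adm*+/- fall was called in 24 of 25 alternative settings, the exception being a test against the fold limit itself (edgeR's glmTreat).

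*Abca3* encodes the transporter that loads phospholipid into lamellar bodies. It measured 519.7, 492 and 496 CPM in WT PBS and 417, 419 and 477 CPM in WT LPS lungs, and 488, 425 and 534 against 478, 362 and 387 CPM in *Adm*+/- lungs. The WT groups did not overlap and the *Adm*+/- groups did. Its log2 fold changes of -0.20 and -0.24 did not pass the test (adjusted p = 0.258 and 0.163).

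*Napsa* encodes napsin A, an aspartic protease that processes pro-SP-B. It measured 145, 157 and 143 CPM in WT PBS and 173, 161 and 167 CPM in WT LPS lungs. The *Adm*+/- values were 154, 143 and 150.3 CPM after PBS and 208, 177 and 162 CPM after LPS. LPS libraries were above PBS libraries in both genotypes with no overlap, but the fold changes were small. They were 0.17 in WT (adjusted p = 0.233) and 0.29 in *Adm*+/- lungs (adjusted p = 0.0436, under the fold limit) on the log2 scale.

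*Lamp3* encodes DC-LAMP, a glycoprotein of the lamellar body membrane that is also made by mature dendritic cells. It measured 232, 219 and 96.4 CPM in WT PBS lungs and 221, 210.0 and 189 CPM in WT LPS lungs. In *Adm*+/- pups it measured 147, 216 and 213 CPM after PBS and 294, 306 and 258 CPM after LPS. The 2 lowest values belonged to libraries 5 and 6, which held the highest *Sftpa1* and *Sftpd* of their groups. The *Adm*+/- LPS libraries were the 3 highest of the 12, and the WT groups overlapped. The log2 fold change was 0.18 ± 0.27 in WT (adjusted p = 0.658) and 0.58 ± 0.27 in *Adm*+/- lungs (adjusted p = 0.125), and neither passed the test. Without libraries 5 and 6 the WT value turned to -0.13, and the *Adm*+/- value was 0.42 with an adjusted p of 0.0085, under the fold limit.

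*Slc34a2* measured 1681, 1727 and 1364 CPM in WT PBS and 2142, 2019 and 1899 CPM in WT LPS lungs. The *Adm*+/- lungs held 1430.2, 1401 and 1607 CPM after PBS and 2564, 2309.9 and 2257 CPM after LPS. Every LPS library lay above every PBS library. Its log2 fold change was 0.34 ± 0.11 in WT (adjusted p = 0.0476, under the fold limit) and 0.68 ± 0.11 in *Adm*+/- lungs (1.61-fold, adjusted p = 0.00101).

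*Nkx2-1*, the regulator, measured 163, 159 and 189 CPM in WT PBS and 140.2, 163 and 174 CPM in WT LPS lungs, and 178, 141 and 171 against 164, 145 and 151 CPM in *Adm*+/- lungs. LPS and PBS libraries overlapped. Its log2 fold changes of -0.10 (95% interval -0.36 to 0.16) and -0.09 (-0.35 to 0.17) did not pass the test.

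Ranges of LPS and PBS libraries that did not overlap were found for 5 of 10 members in WT (3 higher, 2 lower), beside 36.2% of all tested genes (18.3% higher, 17.9% lower). They were found for 6 of 10 in *Adm*+/- lungs (5 higher, 1 lower), beside 53.7% (26.6% higher, 27.1% lower).

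**Figure D3:**
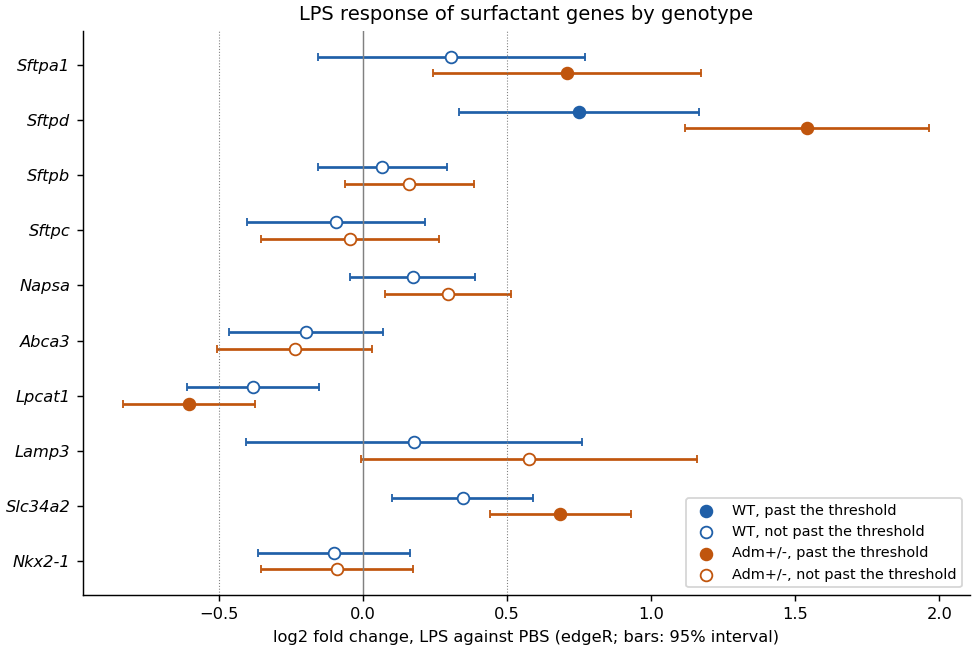
Log2 fold change of LPS against PBS for each member (points) with its 95% interval (bars), WT in blue and *Adm*+/- in orange, filled where the gene passed the threshold and with dotted lines at 0.5 and -0.5. The *Adm*+/- point lay farther from 0 than the WT point for every member except *Sftpc* and *Nkx2-1*, with overlapping intervals.

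The next question was whether the genotypes responded differently. This was tested as the interaction of genotype and treatment in the same fit, and 0 of 10 members passed, beside 0.145% of all tested genes. At an unadjusted p under 0.05 there was 1 member, *Sftpd*, and 1247 of all tested genes. For *Sftpd* the difference was 0.79 ± 0.27 on the log2 scale (95% interval 0.21 to 1.38, adjusted p = 0.447). For *Sftpa1* it was 0.40 ± 0.30 (adjusted p = 0.884), for *Lamp3* 0.40 ± 0.38 (0.960), for *Slc34a2* 0.34 ± 0.16 (0.648) and for *Lpcat1* -0.22 ± 0.15 (0.847). The differences of the other 5 members lay between -0.04 and 0.12. With 1 library left out, *Sftpa1* ran from 0.16 (without library 5) to 0.60 (without library 6), *Lamp3* from 0.19 (without library 3) to 0.71 (without library 5) and *Lpcat1* from -0.30 (without library 9) to -0.11 (without library 11), and none was called. A gene called in *Adm*+/- and not in WT lungs is thus not shown to differ between them.

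In PBS the genotypes were close. None of the 10 members was called between *Adm*+/- and WT lungs, beside 0% of all tested genes, and every member overlapped between genotypes, beside 4.99% of tested genes whose ranges did not (2.47% higher, 2.51% lower). At an unadjusted p under 0.05 there were 0 members and 344 of all genes. The log2 differences ran from -0.27 for *Sftpd* (95% interval -0.68 to 0.15) to 0.07. The *Sftpd* difference was -0.06 without library 5, -0.17 without library 8 and -0.41 without library 6.

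After LPS, the levels of *Sftpd*, *Lamp3* and *Slc34a2* were higher in every *Adm*+/- library than in any WT library, but the differences did not pass the test. These were 3 of 10 members, beside 12.2% of all tested genes that were higher and 12.4% that were lower without overlap (24.6% in all). The log2 differences were 0.53 ± 0.19 for *Sftpd* (95% interval 0.11 to 0.94, adjusted p = 0.204), 0.47 ± 0.27 for *Lamp3* (adjusted p = 0.489) and 0.23 ± 0.11 for *Slc34a2* (adjusted p = 0.377). *Sftpa1* differed by 0.26 ± 0.21 (adjusted p = 0.696), and by 0.16 without library 10. As a percent of *Sftpc* per kb in the same library, the genotypes overlapped after LPS. *Sftpd* was 1.32% to 2.12% in WT and 1.85% to 2.58% in *Adm*+/- LPS libraries. *Lamp3* was 0.651% to 0.893% and 0.871% to 0.996%, and *Slc34a2* 4.20% to 5.79% and 5.04% to 5.55%. In all, 0 of 10 members were called, beside 2.05% of all tested genes (0.327% higher, 1.72% lower), and the counts at an unadjusted p under 0.05 were 1 and 2275. Without libraries 5, 6 and 9 the tests of *Sftpd* (0.63, adjusted p = 0.0284) and *Lamp3* (0.52, adjusted p = 0.0128) passed, beside 6.26% of all genes tested there.

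Ratios within a library do not depend on the scaling between libraries, and *Sftpc* was used as the reference gene. Per kb of exon, *Sftpd* was 0.802%, 0.831% and 1.03% of *Sftpc* in WT PBS lungs and 2.12%, 1.32% and 1.49% in WT LPS lungs. The *Adm*+/- ratios were 0.719% to 0.743% after PBS and 2.58%, 1.85% and 2.11% after LPS. The LPS libraries did not overlap the PBS libraries. *Sftpa1* ran from 3.23% to 4.36% of *Sftpc* in WT PBS and from 3.65% to 6.12% in WT LPS libraries, which overlapped, and from 3.04% to 3.41% in *Adm*+/- PBS and 4.51% to 5.98% in *Adm*+/- LPS libraries, which did not. *Sftpd* also rose against its neighbour, at 21.1% to 25.7% of *Sftpa1* in PBS and 29.7% to 43.2% in LPS libraries.

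*Sftpb* against *Sftpc* overlapped, at 7.81% to 9.84% in PBS and 9.07% to 10.8% in LPS libraries. *Sftpd* was 57.6% to 119% of *Lpcat1* per kb in PBS, 158% to 248% in WT LPS and 253% to 383% in *Adm*+/- LPS libraries. *Slc34a2* was 295% to 373% of *Lpcat1* in PBS, 467% to 679% in WT LPS and 692% to 823% in *Adm*+/- LPS libraries. For both ratios the LPS libraries lay above the PBS libraries. This follows from the levels given above, where each of these genes already separated LPS from PBS libraries, *Lpcat1* in the opposite direction. *Lpcat1* itself was 0.864% to 1.19% of *Sftpc* in WT PBS and 0.725% to 0.939% in WT LPS libraries, with overlap, and 0.862% to 1.29% in *Adm*+/- PBS and 0.675% to 0.728% in *Adm*+/- LPS libraries, without overlap.

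**Figure D4:**
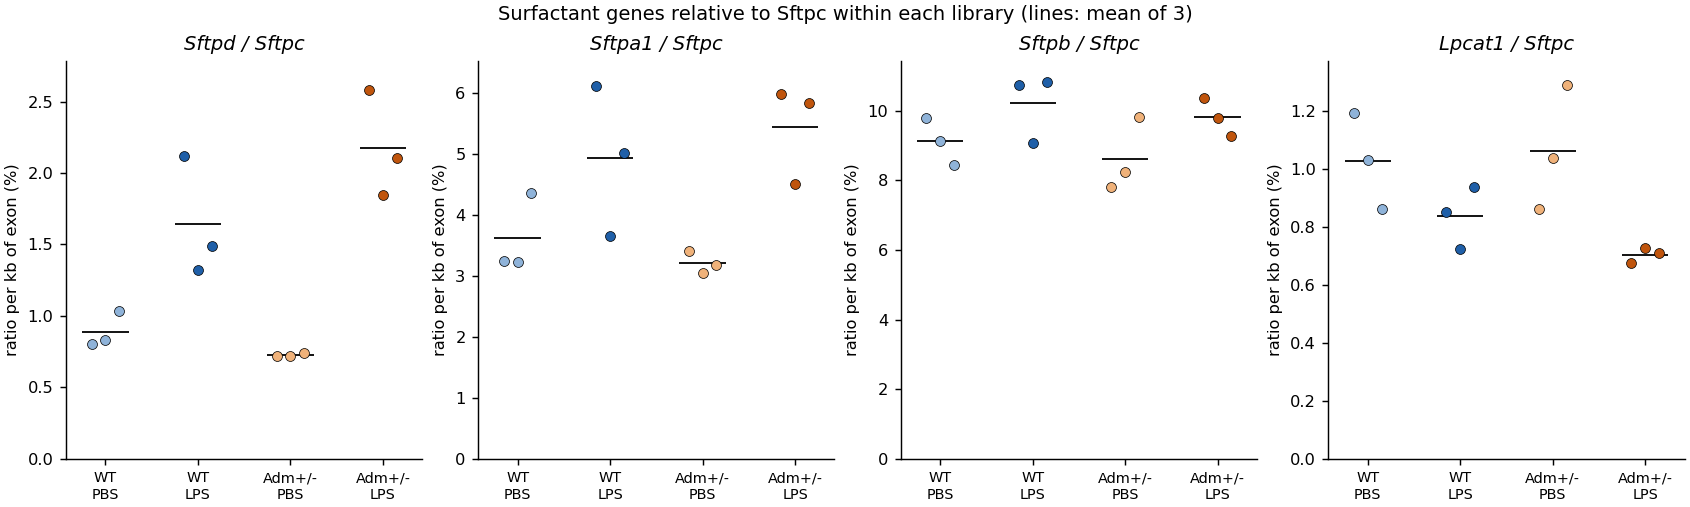
Level per kb of exon of *Sftpd*, *Sftpa1*, *Sftpb* and *Lpcat1* as a percent of *Sftpc* in the same library, with 1 point per library and a line at the mean of 3. For *Sftpd* every LPS point lay above every PBS point, and the lowest values, 0.719% to 0.743%, belonged to *Adm*+/- PBS lungs.

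The members did not vary as one block. Over the 45 pairs of members, Pearson's r of log2 CPM over 12 libraries ran from -0.95 for *Sftpd* and *Lpcat1* to 0.92 for *Sftpa1* and *Sftpd*, with a median of 0.04. These values are descriptive and include the difference between LPS and PBS. Within groups, after subtraction of each group's mean, *Sftpa1* and *Sftpd* again gave 0.92, *Lamp3* and *Slc34a2* 0.79 and *Sftpb* and *Nkx2-1* 0.81. *Lamp3* ran against *Sftpa1* within groups, at -0.83. Each PBS group had its lowest *Lamp3* and its highest *Sftpa1* and *Sftpd* in library 5 (WT) or library 6 (*Adm*+/-). The part of these libraries in the within-group values was not tested. *Sftpc* and *Sftpd* gave 0.00 over all libraries and 0.45 within groups, where the median of the 45 pairs was 0.21.

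Genes whose level over the 12 libraries was most like the mean of the 10 members were *Med8* (r = 0.96), *Il31ra* (0.93), *Acr* (0.92), *Syt7* (0.92) and *Orai1* (0.91), and the most opposite were *Tex14* (-0.95), *Lig4* (-0.95), *Sytl2* (-0.93), *Zfand1* (-0.92) and *Cdk2* (-0.92). For *Sftpc* alone the most similar were *Repin1*, *Psmb6* and *Cilp2*, each at 0.91. These are the extremes of 15885 genes over 12 libraries that differ in treatment and depth.

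Genes that supply the lipid of surfactant were next described from a list of 24 tested enzymes, carriers and regulators. In WT lungs 4 were called higher and 0 lower with LPS, and in *Adm*+/- lungs 9 higher and 0 lower, with median log2 fold changes of 0.25 and 0.40. Of all tested genes, beside which this and the following lists are to be read, 10.5% were called higher and 7.09% lower in WT, and 12.8% higher and 12.2% lower in *Adm*+/- lungs, with medians of 0.01 and -0.01. *Fabp5*, a fatty acid binding protein, had the smallest p in both genotypes. It rose from 38.5 ± 3.73 to 65.4 ± 6.07 CPM (mean ± SD, n = 3) in WT and from 36.3 ± 0.707 to 70.2 ± 1.59 CPM in *Adm*+/- lungs, by 0.77 ± 0.10 and 0.95 ± 0.10 on the log2 scale. *Fasn*, fatty acid synthase and the most abundant of the list, measured 0.00 and 0.46 and did not pass. Other members are named after their values were seen. *Elovl6*, which elongates palmitate, rose by 1.23 ± 0.29 in WT and 2.58 ± 0.30 in *Adm*+/- lungs, and the phosphatidate phosphatase *Lpin1* by 1.13 and 1.58. *Pcyt1a*, which sets the rate of phosphatidylcholine synthesis, measured -0.06 and -0.29, and *Srebf1*, a master regulator of lipogenesis, -0.28 and -0.16, and none of these was called. *Mfsd2a*, a lysophospholipid carrier, was called in *Adm*+/- lungs (3.73 ± 0.59) at a low level of 2.23 ± 0.554 CPM after LPS. In WT it measured 1.48, the largest value of the list there.

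Genes of lamellar body assembly, secretion and surfactant recycling numbered 23. In WT lungs 5 were called higher and 0 lower, and in *Adm*+/- lungs 7 higher and 2 lower, with medians of 0.07 and 0.19. *P2ry2*, the purinergic receptor through which ATP triggers surfactant secretion, rose from 11.8 ± 1.10 to 29.9 ± 10.1 CPM in WT and from 11.6 ± 0.284 to 53.5 ± 3.81 CPM in *Adm*+/- lungs (log2 fold changes 1.35 ± 0.20 and 2.21 ± 0.20). *Rab32*, a small GTPase of lysosome-related organelles, rose by 1.51 ± 0.21 and 1.39 ± 0.21. *Adgrf5*, the receptor that holds the surfactant pool in check and the most abundant of the list, measured 0.40 in WT and 0.56 in *Adm*+/- lungs, and only the latter was called. After their values were seen, *Ctsh*, a protease that acts with napsin A on pro-SP-B, can be added with rises of 0.79 and 0.98. The 2 genes lower in *Adm*+/- lungs, likewise named after their values were seen, were *Lgi3* (-0.81 ± 0.14, and -0.30 in WT without a call) and *Rab38* (-0.85 ± 0.25, and -0.10 in WT), the latter a GTPase needed for lamellar bodies of normal size.

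Of 20 further regulators of type II cell genes, 3 were called higher and 0 lower in WT, and 4 higher and 3 lower in *Adm*+/- lungs, with medians of 0.00 and -0.08. *Klf5*, a Kruppel-like factor of the distal epithelium, rose by 0.79 ± 0.21 and 0.64 ± 0.21. *Etv5*, an Ets factor that maintains type II cells, fell in *Adm*+/- lungs from 165 ± 11.1 to 67.9 ± 13.1 CPM (-1.28 ± 0.18, adjusted p = 4.47e-04) and measured -0.42 ± 0.18 in WT (adjusted p = 0.113). *Nfib*, the most abundant of the list, was called lower in *Adm*+/- lungs (-0.54 ± 0.14) and not in WT (-0.39). Named after their values were seen, *Foxa2*, a partner of NKX2-1, was called lower in *Adm*+/- lungs (-0.60) and measured -0.18 in WT, and *Stat3* was called higher in both (0.85 and 1.82). *Cebpa*, a factor of type II cell maturation also named after its values were seen, measured -0.45 and -0.52 and was not called.

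**Figure D5:**
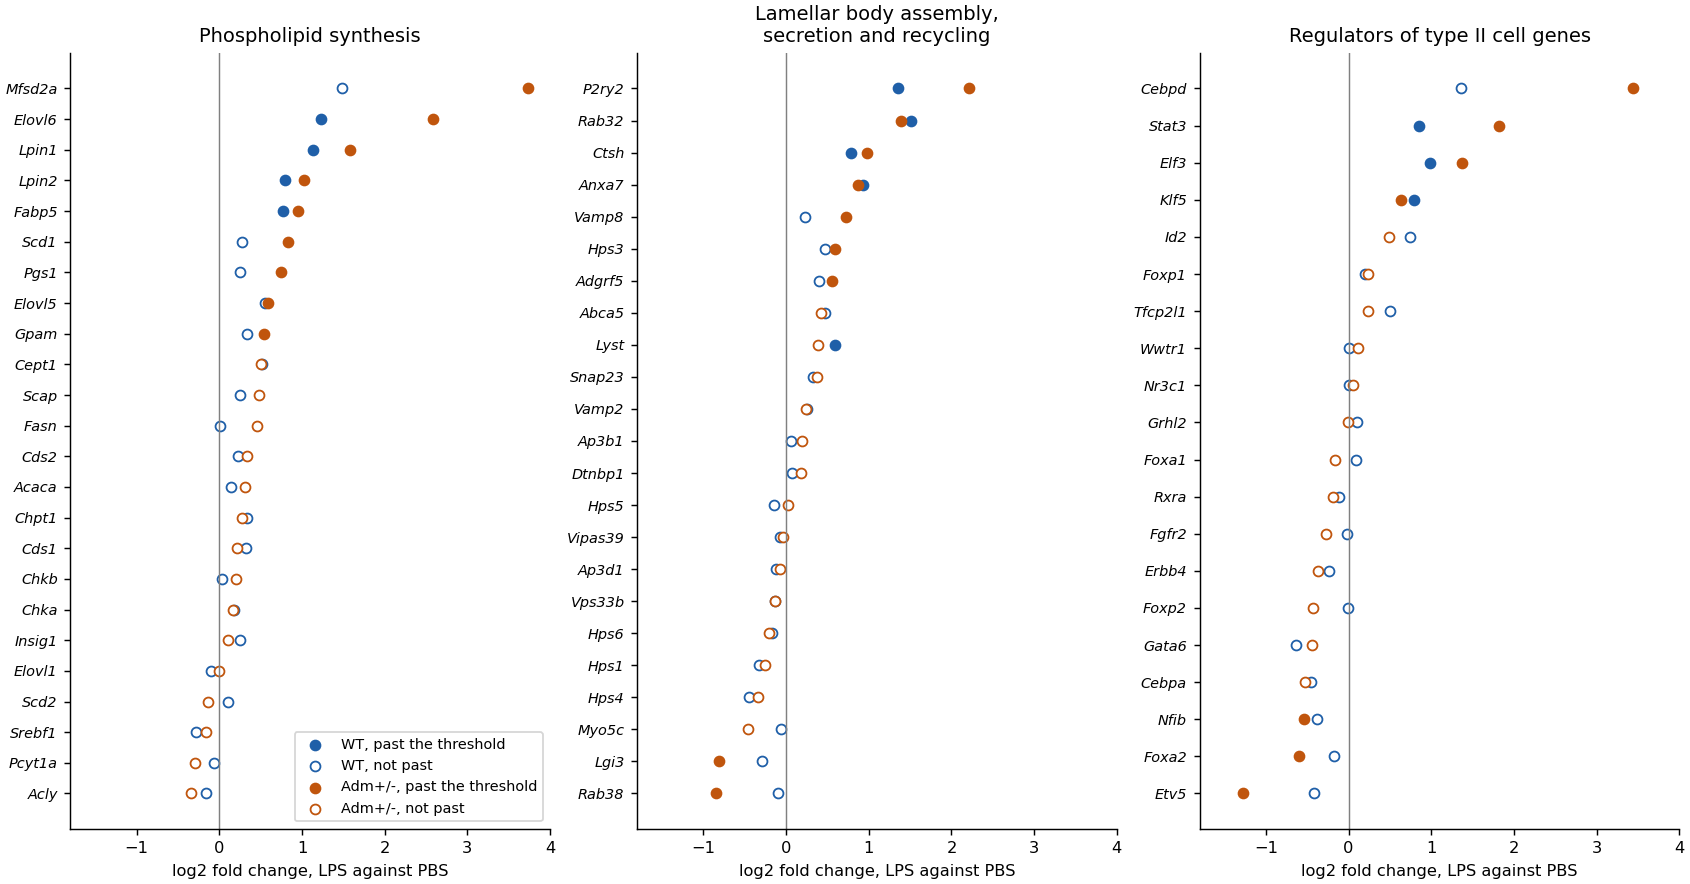
Log2 fold change of LPS against PBS for each tested gene of 3 lists (phospholipid synthesis, lamellar body assembly and recycling, regulators), WT in blue and *Adm*+/- in orange, filled where the gene passed the threshold. In the phospholipid list 4 genes were called in WT and 9 in *Adm*+/- lungs, all of them higher.

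Clearance of surfactant rests with alveolar macrophages under the control of GM-CSF. Of 16 such genes 5 were called higher and 0 lower in WT, and 5 higher and 1 lower in *Adm*+/- lungs, with medians of 0.36 and 0.34. *Csf2*, the gene of GM-CSF, rose from 1.42 ± 0.488 to 4.57 ± 2.36 CPM in WT and from 1.22 ± 0.264 to 12.3 ± 0.796 CPM in *Adm*+/- lungs. It was also called between genotypes after LPS (1.42 ± 0.33, adjusted p = 0.0494). *Spi1*, the myeloid factor PU.1, rose by 2.07 ± 0.18 and 2.08 ± 0.18, and *Plin2*, a lipid droplet protein and the most abundant of the list, by 0.57 in WT, with 0.48 and no call in *Adm*+/- lungs. In the other 3 lists no gene was called between genotypes in PBS or in LPS.

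Type II cells were also followed by 22 markers that are not members, some of them shared with the lists above. In WT lungs 5 were called higher and 1 lower, and in *Adm*+/- lungs 9 higher and 3 lower, with medians of 0.31 and 0.39. Their summed level was 3543 to 4809 CPM in PBS and 5375 to 7054 CPM in LPS libraries. *Fabp5*, described above, had the smallest p in WT. *Lyz2*, lysozyme of type II and myeloid cells and the most abundant marker, rose by 0.63 ± 0.16 and 0.64 ± 0.16. *Chil1*, a chitinase-like protein, rose from 162 ± 24.9 to 761 ± 159.7 CPM in *Adm*+/- lungs (2.23 ± 0.21) and by 1.44 ± 0.21 in WT. *Cd74*, the invariant chain of MHC class II, named after its values were seen, fell by 0.75 and by 0.66 on the log2 scale. *Etv5* and *Lgi3*, described above, are also among these markers and were called lower in *Adm*+/- lungs. The part of myeloid cells in the summed level was not tested.

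Transcripts of other cells moved with LPS as well. The summed level of 14 neutrophil genes was 128 to 332 CPM in PBS and 2456 to 4313 CPM in LPS libraries, with 13 of 14 called higher in each genotype. *Csf3r*, the receptor of G-CSF, rose by 2.66 ± 0.23 in WT and 2.82 ± 0.23 in *Adm*+/- lungs on the log2 scale, and *Lcn2*, lipocalin 2 and the most abundant of the list, by 3.99 ± 0.45 and 5.43 ± 0.48. For 14 genes of alveolar macrophages and monocytes the sums were 271 to 330.2 and 596 to 940.4 CPM, with 8 called higher in each. The scavenger receptor *Marco* rose by 3.81 ± 0.42 and 3.79 ± 0.42, whereas *Csf1r*, the most abundant, was called in WT (0.68) and not in *Adm*+/- lungs (0.44). *Cd14*, the co-receptor for LPS, rose by 2.46 ± 0.31 in WT and 4.65 ± 0.34 in *Adm*+/- lungs and was also called between genotypes after LPS (1.68 ± 0.30, adjusted p = 0.0159). Club cells of the airway also make SP-A and SP-D, and the sum of 11 club cell genes was 2149.6 to 3220.0 CPM in PBS and 4373 to 5313 CPM in LPS libraries. The part of airway cells in the rise of *Sftpd* and *Sftpa1* was not tested. For 18 general epithelial genes the sums overlapped, at 1779 to 2382 CPM in PBS and 1966 to 2177 CPM in LPS libraries. Of these, 3 were called higher and 1 lower in WT, and 4 higher and 0 lower in *Adm*+/- lungs. *Ehf*, an epithelial Ets factor, rose by 2.21 ± 0.34 and 2.46 ± 0.34, and *Cldn18*, a claudin and the most abundant of them, measured -0.27 and -0.18 and was not called. Their mean log2 CPM, in which each gene counts alike, was 5.83 to 6.13 in WT PBS and 6.02 to 6.40 in WT LPS libraries, with overlap, and 5.73 to 5.97 in *Adm*+/- PBS and 6.11 to 6.16 in *Adm*+/- LPS libraries, without overlap.

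Measured against the mean log2 level of these 18 epithelial genes in place of all tested genes, the median of all genes shifted to -0.29 in WT and -0.32 in *Adm*+/- lungs, and the share of calls that were higher went from 59.6% to 21.8% in WT and from 51.3% to 21.4% in *Adm*+/- lungs. On that scale the *Adm*+/- calls were *Sftpd* higher (1.25, adjusted p = 1.29e-04), *Abca3* lower (-0.55, adjusted p = 0.0221) and *Lpcat1* lower (-0.91, adjusted p = 0.00158). *Sftpa1* (0.42) and *Slc34a2* (0.37) were no longer called there. In WT *Lpcat1* was called lower (-0.68, adjusted p = 0.0112), and *Sftpd* at 0.47 was under the fold limit. *Sftpc* measured -0.36 and -0.34 on that scale and did not pass the test (adjusted p = 0.111 and 0.125). In WT LPS libraries 9 and 11, which held squamous transcripts, the mean log2 level of the epithelial genes was 6.40 and 6.26. It was 6.02 in library 10 of that group. The part of squamous tissue in the WT values on this scale was not tested.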

How the data were processed

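The authors trimmed reads (Trim Galore), mapped them to mm10 (HISAT2) and assigned them to Gencode gene models (featureCounts). The deposited values are raw counts per gene and library, not normalized. The Gencode release and the strand option are not given in the sources used here. The kit was directional, and ribosomal RNA had been depleted.

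Of 52550 genes, 21950 are protein-coding, and the 15885 that passed edgeR's filterByExpr were TMM-scaled. Tests were edgeR's quasi-likelihood F-tests (R 4.3.3, edgeR 4.0.16) in 1 fit of 12 libraries with a coefficient per group and 8 residual degrees of freedom. Adjusted p-values are Benjamini-Hochberg over all tested genes, and the threshold was 0.05 with an absolute log2 fold change above 0.5. SEs were derived from the fold change and F. Log2 CPM used a prior count of 2, and lengths are exon unions of Gencode M21. The fits were tested on simulated data. Libraries within a group differed beyond sampling noise in all 12 pairings. The labels give 3 libraries per group, which the study describes as 3 mice. Each p-value sets a difference between groups against the spread between libraries within groups, estimated over all 12 libraries.

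The members and gene lists were chosen with earlier results of these data known. Named were all members, *Adm*, from each list described the gene of smallest p per genotype, the most abundant gene and any called in all of WT, *Adm*+/- and the genotypes in LPS, the genes most and least like the members, and *Gm26917*, *Krt13* and *Acta1* for libraries that stood apart. The text says where other list genes were named after their values were seen. Alternatives were other scalings, DESeq2 1.42.0, limma-voom (limma 3.58.1), other filters, thresholds and gene sets, fits of only the libraries compared, libraries left out, and epithelial genes as reference.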

Additional observations from a re-analysis of the deposited data

How the results depend on the processing

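The count of members called kept its value under other scalings (RLE, total counts, upper quartile), DESeq2, limma-voom, no filter on low counts and all annotated genes in both LPS comparisons. In WT the count of 1 became 3 with no minimum fold change (*Lpcat1* and *Slc34a2* added), 0 with glmTreat, 0 in a fit of only the compared libraries (*Sftpd* adjusted p = 0.0555) and 2 without libraries 5 and 6 (*Sftpa1* added). Leaving out 1 library gave 0 to 1 in WT, and it was 0 without WT PBS library 3, WT PBS library 4 or WT LPS library 9. In *Adm*+/- lungs the count of 4 became 1 with glmTreat (*Sftpd*), 5 with no minimum fold change (*Napsa* added), 5 in a fit of only the compared libraries (*Lamp3* added) and 3 relative to epithelial genes, and it ran from 3 to 5 with 1 library left out. In the comparison of genotypes in LPS the count of 0 became 2 without libraries 5, 6 and 9, a setting under which the share of all tested genes called also rose, from 2.05% to 6.26%. In WT that share was 17.6% as reported, 21.3% with no minimum fold change, 6.30% with glmTreat and 7.39% in the fit of only the compared libraries, 29.4% relative to epithelial genes, 10.4% without libraries 5, 6 and 9 and 9.004% without library 9 alone. In *Adm*+/- lungs the 25% became 10.7% with glmTreat. Between genotypes in LPS it was 5.06% with DESeq2, 0.837% with glmTreat and 3.40% without libraries 5 and 6. With 1 library left out it was 0.503%, 0.534% and 0.553% without libraries 1, 2 and 12, 1.03% without library 11, 1.33% without library 7, 3.42% without library 10 and 3.56% without library 5. The 23 genes called in the interaction became 168 with DESeq2, 1 with limma-voom, 13 with glmTreat and 51 without libraries 5, 6 and 9, and ran from 5 without library 7 to 65 without library 10, with 6 to 11 without library 1, 2, 3, 4, 6, 8, 9 or 12. The interaction and the comparison in PBS gave 0 under every alternative run.

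Directions turned only for values that had not passed the test. In WT, *Lamp3* became -0.13 without libraries 5 and 6, -0.18 without libraries 5, 6 and 9 and -0.16 relative to epithelial genes, and ran from -0.13 to 0.39 with 1 library left out. *Sftpc* became 0.076 and *Nkx2-1* 0.060 without libraries 5, 6 and 9. Relative to epithelial genes *Sftpb* became -0.22 and *Napsa* -0.13 in WT, and *Sftpb* -0.14 and *Napsa* -0.013 in *Adm*+/- lungs. That reference shifted all genes alike, with a median over tested genes of -0.29 in WT and -0.32 in *Adm*+/- lungs. *Sftpc* in *Adm*+/- lungs became 0.11 without libraries 5 and 6, 0.11 without libraries 5, 6 and 9, and ran from -0.15 to 0.10 with 1 library left out. The cause of the turns with libraries left out was not tested.

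No paired analysis was possible because the labels number the libraries 1 to 12 and no number is shared between groups.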

Other observations

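Genes of the glucocorticoid response, which also promotes surfactant maturation before birth, were higher after LPS. Of 12 listed genes 10 were called higher in WT and 11 in *Adm*+/- lungs, and 0 lower in either, with median log2 fold changes of 1.57 and 2.30 beside 0.01 and -0.01 over all tested genes. The summed level was 632 to 1380.3 CPM in PBS and 1956 to 3106 CPM in LPS libraries. *Fkbp5*, a chaperone induced by the glucocorticoid receptor, had the smallest p in both genotypes and rose by 2.78 ± 0.31 in WT and 3.52 ± 0.32 in *Adm*+/- lungs. *Zbtb16*, the most abundant of the list, rose by 2.70 ± 0.76 and 5.29 ± 0.86. The receptor itself, *Nr3c1*, named after its values were seen, measured 0.00 and 0.05 and was not called. No gene of this list was called between genotypes in PBS or in LPS.

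Lists for other lung cells are given beside the share of all tested genes called, 17.6% in WT and 25% in *Adm*+/- lungs. Of 14 type I pneumocyte genes 1 was called higher and 2 lower in WT, and 2 higher and 1 lower in *Adm*+/- lungs. *Ager*, the most abundant of them, measured -0.32 and -0.10 without a call, and *Igfbp2* fell by 1.53 and by 1.11 on the log2 scale. *Rtkn2* was called in *Adm*+/- lungs (0.55) and measured 0.22 in WT. Of 11 club cell genes 2 were called higher in WT and 3 higher and 1 lower in *Adm*+/- lungs, led by *Hp*, haptoglobin, at 1.92 ± 0.29 and 3.15 ± 0.30. *Scgb1a1*, the main secretory protein of club cells, measured 0.56 and 0.74 and was not called. Of 11 ciliated cell genes 0 were called in WT, and in *Adm*+/- lungs 1 was higher (*Dnah9*, 0.73) and 1 lower (*Tppp3*, the most abundant, -0.77, and -0.63 in WT without a call). Of 14 endothelial genes 0 were higher and 3 lower in WT and 1 was higher and 4 lower in *Adm*+/- lungs. *Kdr*, the main VEGF receptor, fell by 0.79 and by 1.11, and *Cdh5*, VE-cadherin and the most abundant, measured -0.15 and 0.09 without a call. Of 14 genes listed for fibroblasts 2 were higher and 2 lower in WT and 1 higher and 4 lower in *Adm*+/- lungs. Their summed level was 68673 CPM in PBS library 5 and 47968 CPM in PBS library 6, against 26325 to 35539 CPM in the other libraries. The fold changes of these genes without libraries 5 and 6 are not given here. *Wnt2* fell by 1.58 and by 1.55 and *Fgf10*, a growth factor for the distal epithelium, by 0.66 and by 1.54, whereas *Macf1*, the most abundant of the list, was called lower in *Adm*+/- lungs (-0.58) and measured -0.46 in WT without a call. Skeletal muscle genes marked all WT LPS libraries. Mean *Neb* after LPS was 227 CPM in WT against 19.7 CPM in *Adm*+/- lungs, and mean *Myh8* was 507 against 4.17 CPM. For the squamous gene *Krt4* the means were 716 and 8.61 CPM. Squamous genes marked only libraries 9 and 11 of the WT LPS group, and their sum in library 10 was 40.5 CPM.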
